A study of Oryctolagus cuniculus with 20 samples.

Results

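The heat shock proteins and other molecular chaperones were followed in artery grafts, in the arteries opposite to them and in vein. The members were chosen by gene symbol alone: numbered HSPA and HSPB genes, HSP90 genes, HSPD1, HSPE1 and HSPH1, J proteins of the DNAJA, DNAJB and DNAJC classes, PDIA disulfide isomerases, BAG co-chaperones, and CRYAB, CALR, CANX, PDILT and CREB3L1. The table held 65 transcript rows of this kind, which gave 64 genes of 23669. Of these, 48 reached 1 FPKM (fragments per unit of transcript length and of library size) in at least 4 libraries and were tested, and 16 did not.

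Chaperones bind proteins that are unfolded, newly made or damaged. Small heat shock proteins hold such clients without using ATP, HSP70 proteins fold them in cycles of ATP hydrolysis that J proteins start and nucleotide exchange factors (HSP110 and BAG proteins) end, and a parallel set with disulfide isomerases and calnexin serves secreted proteins in the endoplasmic reticulum (ER). In muscle, including the smooth muscle of arteries, small heat shock proteins and BAG3 are abundant and attend the contractile cytoskeleton. CREB3L1, which is no chaperone, is a transcription factor held in the ER membrane until it is cut free.

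The libraries are total RNA of rabbit (Oryctolagus cuniculus) vessels. Common carotid artery had been grafted into a vein, and the graft was taken 14 days after surgery (graft day 14) or 30 days after surgery (graft day 30). Controls were the opposite, unoperated common carotid artery at the same times (control day 14 and control day 30), and the remaining group was unoperated external jugular vein. Each of the 5 groups has 4 libraries. All 20 samples, controls and vein included, carry the treatment label "transplatation", the genotype label "tissue" and the cell line label "HASMC". Strain, sex and age are not given in the labels, and the replicates are called biological without being tied to animals, so p-values measure the spread between samples, which may be technical.

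Depth is unknown, since the table holds FPKM and no read counts. Summed FPKM per library ran from 327806 to 671582. Replicates were closer in control day 14 than elsewhere: the SD of log2 levels, as a median over the 1265 genes above 30 FPKM, was 0.0733 there and between 0.135 (vein) and 0.324 (graft day 14) in the other groups. In each other group 1 library lay close to a weighted mean of the remaining 3 (graft day 14 replicate 3, control day 30 replicate 2, graft day 30 replicate 4, vein replicate 4). Counts of calls are therefore also given with control day 14 taken as 1 sample, without those 4 libraries, and with both changes. Smooth muscle markers ACTA2, MYH11 and TAGLN were above 0 in every library, while DES was at 0 in 10 libraries and SMTN in all 20.

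At day 14, 14 of 20 tested cytosolic members were lower in the graft than in the opposite artery, CRYAB most of all. Of 10 tested ER members 4 were lower and 3, CREB3L1 among them, were higher. The lower ones, HSPA13, DNAJB9, DNAJC3 and PDILT, lost their calls with both changes of libraries, and no effect of the graft is read from PDILT. Of the 48 tested members, 21 were lower and 10 were higher in the graft (limma, adjusted p under 0.05). Among all 8657 genes tested, 17.0% were called lower and 36.5% higher. The median log2 change of the members was -0.15, against 0.26 over all genes tested. Changes are differences of mean log2(FPKM + 1), which understate those of genes with low values. With libraries scaled by median-of-ratios factors the split was 25 lower and 6 higher, the median of all genes moving by -0.218. With control day 14 as 1 sample it was 13 lower and 6 higher, without the 4 mixture-like libraries 19 and 9, and 11 and 4 when both were done. In 20 members every graft library lay below every control library (16.1% of all genes), and in 7 every graft library lay above (33.9%).

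**Figure D1:**
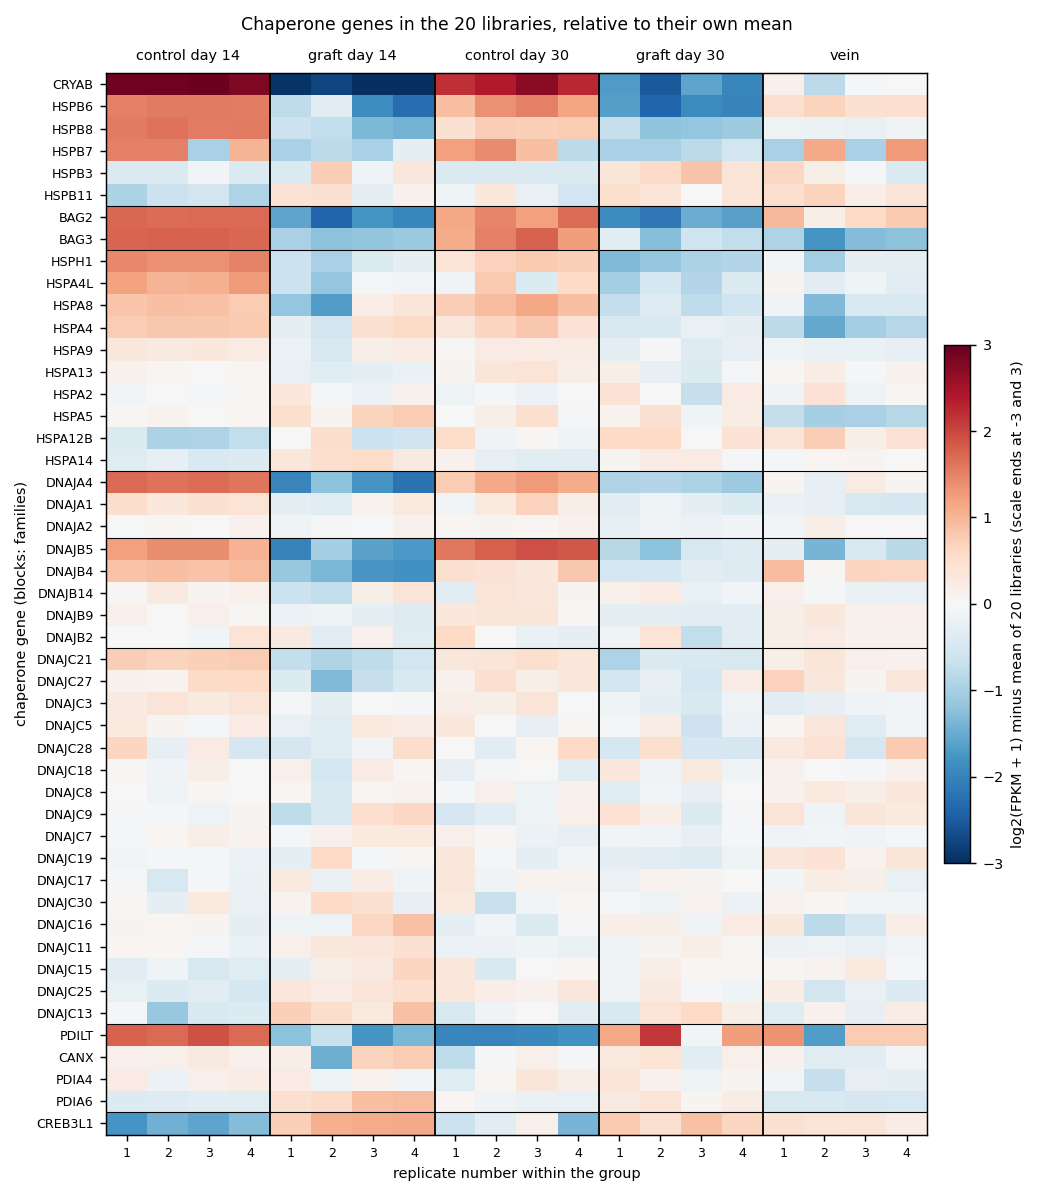
Heat map of the 48 tested members (rows, in blocks by family) in the 20 libraries (columns, by group and replicate number). Colour is log2(FPKM + 1) minus the member's mean over the 20 libraries, and the scale ends at -3 and 3. The small heat shock proteins CRYAB, HSPB6 and HSPB8, both BAG proteins, HSPH1, DNAJA4 and DNAJB5 are red in all 8 control libraries and blue in all 8 graft libraries.

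The members were also counted by their place in the cell. Of 20 tested cytosolic members, 14 fell and 1 rose at day 14, with a median log2 change of -1.57. In 13 of them every graft library lay below every control, as in 16.1% of all genes tested. Between 10 and 15 were called lower in each alternative, the lowest with control day 14 as 1 sample. Of 10 tested members of the ER, 4 fell and 3 rose (median -0.23). The falls were HSPA13, DNAJB9, DNAJC3 and PDILT, and none of these calls held with both changes of libraries. PDILT is not read as an effect of the graft. Of 5 mitochondrial members 1 fell and 2 rose (median 0.28), and of 13 others (nuclear, vesicle or unplaced) 2 fell and 4 rose (median 0.02). Among all genes tested 17.0% were called lower and 36.5% higher, so the rises outside the cytosol were near that share or below it. No test compared the compartments with each other. In bulk tissue, fewer cells of a type and less RNA per cell cannot be told apart.

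Among small heat shock proteins CRYAB (alpha-B crystallin) was the most abundant named member in the unoperated artery. Its levels in control day 14 were 2129, 2139, 2174 and 1972 FPKM, which placed its mean 31st of 23669 genes. In graft day 14 they were 35.8, 40.9, 29.2 and 19.6 FPKM, and its mean ranked 1280th. The groups lay far apart, with a control mean 67.1 times the graft mean. The log2 change was -6.07 (SE 0.24, adjusted p = 2.71e-12), and it was called lower in all 31 alternatives. CRYAB alone made up 42.5% ± 0.787 (SD, n = 4) of the summed FPKM of all members in control day 14 and 2.10% ± 0.974 in graft day 14.

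HSPB6, the cytosolic protein also called HSP20 that is phosphorylated when smooth muscle relaxes, followed at 454, 469, 470.1 and 462 FPKM in control day 14. Graft day 14 libraries had 93.2, 125, 43.4 and 32.0 FPKM, so that they varied among themselves but none came near a control (log2 change -2.85, SE 0.30, adjusted p = 3.07e-07). HSPB8, the small heat shock protein that works with BAG3 in delivering clients to autophagy, had 61.0, 63.6, 60.2 and 61.0 FPKM in control and 12.5, 11.6, 7.20 and 6.85 FPKM in graft (log2 change -2.61, SE 0.16, adjusted p = 3.5e-10). Again no library of one group reached the other. HSPB7, a small heat shock protein of heart and muscle, was listed at 4.54, 4.57, 0 and 2.97 FPKM in control and at 0, 0.13, 0 and 0.60 in graft. Its call (adjusted p = 0.0421) was lost in 13 of 31 alternatives, among them leaving out control replicate 1, 2 or 4 or graft replicate 1, 2 or 3 of day 14.

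The members grouped by symbol as small heat shock proteins did not all move down. HSPB11, which the RefSeq table names IFT25 and which is a part of the intraflagellar transport machinery, rose from 2.98 ± 0.550 to 6.78 ± 1.76 FPKM (a log2 change of 0.95, SE 0.19, adjusted p = 0.000451). HSPB3, listed at 0 in 3 of the 4 controls, was listed at 0, 1.23, 0.23 and 0.70 FPKM in graft day 14 and was not called there (adjusted p = 0.0973). In all, 4 of the 6 tested members of this group were lower and 1, HSPB11, was higher. The place of HSPB11 in the group rests on its symbol.

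BAG proteins bind HSP70 and release its nucleotide. BAG3, the partner of HSPB8, was at 238, 240.5, 239.5 and 234 FPKM in control day 14 and at 35.0, 29.0, 30.3 and 31.4 FPKM in graft day 14. The graft libraries were alike and all lay below the controls (log2 change -2.88, SE 0.19, adjusted p = 1.26e-09). BAG2, which restrains the HSP70-bound ubiquitin ligase CHIP, went from 198, 192, 193 and 195 FPKM to 19.2, 10.5, 16.5 and 14.6 FPKM. This was the second largest fall of the list by log2 change (-3.62, SE 0.18, adjusted p = 5.89e-11). Both calls held in all alternatives, and BAG4 and BAG6 were too low to test.

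HSP70 and HSP110 proteins of the cytosol included 4 that fell. HSPA8, the constitutive HSP70, was at 735, 772, 763 and 696 FPKM in control day 14 and at 184, 128.5, 471 and 532 FPKM in graft day 14. Graft replicates 1 and 2 were low and replicates 3 and 4 were high, all of them below the controls. The log2 change was -1.41 (SE 0.34, adjusted p = 0.00211), and the call was lost when control day 14 counted as 1 sample and when both changes were made (adjusted p up to 0.108). HSPH1, the HSP110 exchange factor, fell from 88.8 ± 3.15 to 21.8 ± 4.503 FPKM with no overlap (log2 change -2.0, SE 0.18, adjusted p = 4.75e-08). Its relative HSPA4L went down from 6.73 ± 0.655 FPKM to 1.61 ± 0.875 FPKM (a log2 change of -1.63, SE 0.26, adjusted p = 4.55e-05). HSPA4, another HSP110 protein, was called lower (log2 change -0.74, SE 0.21, adjusted p = 0.00627), which did not hold under the same alternatives as for HSPA8.

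HSPA14 and HSPA2 were not lower. HSPA14, which sits on the ribosome as part of a complex with a J protein, was at 7.68, 8.32, 7.10 and 7.32 FPKM in control day 14 and at 13.0, 14.4, 15.4 and 12.4 FPKM in graft day 14. Every graft library was higher (log2 change 0.78, SE 0.11, adjusted p = 1.1e-05), and the call held in all alternatives. HSPA2 was at 9.10 ± 0.393 and 9.81 ± 1.65 FPKM with no call (log2 change 0.09, SE 0.19, adjusted p = 0.728).

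J proteins carry the domain that stimulates HSP70. Of class A, DNAJA4 fell from 49.6, 47.2, 49.0 and 46.9 FPKM to 3.00, 5.65, 3.63 and 2.35 FPKM, the third largest fall (log2 change -3.45, SE 0.16, adjusted p = 2.57e-11). DNAJA1, which RefSeq ties to a numbered locus and which may share reads with copies, fell from 86.2 ± 4.98 to 61.8 ± 13.7 FPKM (a log2 change of -0.50, SE 0.15, adjusted p = 0.0105). That call was lost under the same alternatives. DNAJA2 was level at 25.2 ± 0.975 and 24.2 ± 1.76 FPKM and was not called (log2 change -0.06, SE 0.07, adjusted p = 0.545).

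Of class B, DNAJB4 had 98.3, 102, 99.3 and 106 FPKM in control day 14 and 24.2, 20.2, 15.5 and 14.5 FPKM in graft day 14. DNAJB5 had 17.2, 19.4, 19.4 and 15.2 FPKM against 0.95, 2.89, 1.57 and 1.35 FPKM. Both are cytosolic J proteins whose groups did not overlap, with log2 changes of -2.41 (SE 0.17, adjusted p = 2.76e-09) and -2.85 (SE 0.24, adjusted p = 2.27e-08). Class C holds the most varied J proteins, and here 4 of 17 were higher, 3 lower and 10 not called. Among all genes tested 36.5% were called higher and 17.0% lower. Its largest fall was DNAJC21, a factor of ribosome assembly, from 19.8 ± 0.555 to 6.61 ± 0.788 FPKM (a log2 change of -1.46, SE 0.11, adjusted p = 5.05e-09). Its largest rise was DNAJC13, a J protein of endosomes, from 2.09 ± 0.898 to 5.50 ± 1.10 FPKM (a log2 change of 1.11, SE 0.24, adjusted p = 0.00078).

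**Figure D2:**
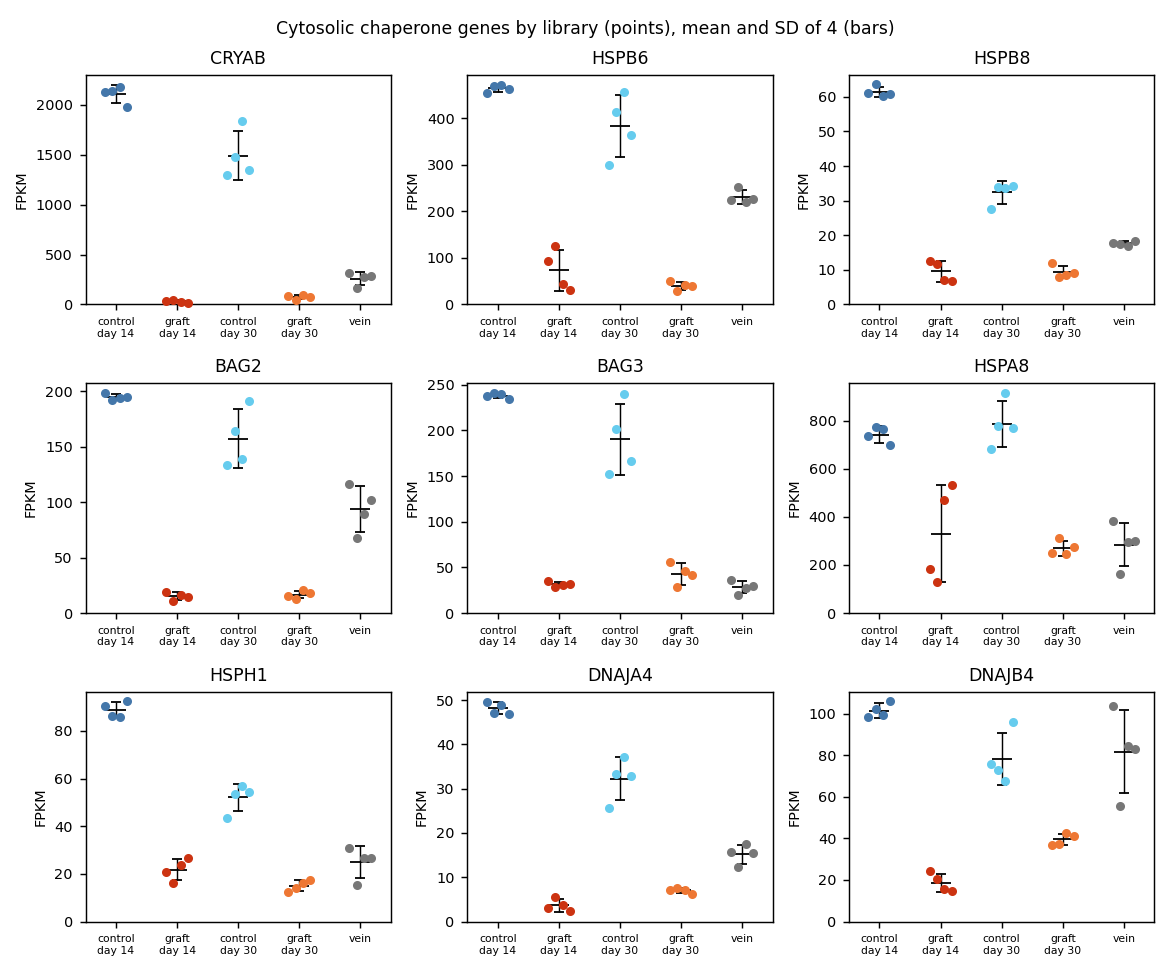
FPKM of 9 cytosolic members in each library (points), with the mean and SD of the 4 libraries of a group (bars) and axes that start at 0. Both graft groups lie below both control groups for each of the 9, and the 4 graft day 14 points of HSPA8 spread from 128.5 to 532 FPKM.

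Summed over the 26 cytosolic members, levels were 4120 to 4392 FPKM in control day 14 and 548 to 906 FPKM in graft day 14. The smooth muscle markers moved with them: 9 of 10 on the list were found by name, CNN1 was not, and their sum was 8398 to 8926 FPKM in control day 14 and 623 to 941 FPKM in graft day 14, with 6 of 7 tested lower. Skeletal muscle markers, of which 7 of 9 were found and TNNC2 and MYLPF were at 0 in every library, summed to 560.4 to 621 FPKM in the controls and 7.02 to 79.2 FPKM in the grafts, with 3 of 3 tested lower. Macrophage markers (10 of 11 found) summed to 14.7 to 16.6 FPKM in control day 14 and 264 to 585.5 FPKM in graft day 14, with 6 of 7 tested higher and CD68 at 0 in all controls and vein. MSR1 had means of at most 0.223 FPKM in the controls and vein. Both genes could pass the filter only through graft libraries, so no rise is read from a call of either. Endothelial markers (8 of 8 found) summed to 50.4 to 56.0 and 247.5 to 565 FPKM, with 6 of 7 tested higher and PECAM1 at 0 in 16 libraries. The part of these cells in the falls was not tested.

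**Figure D3:**
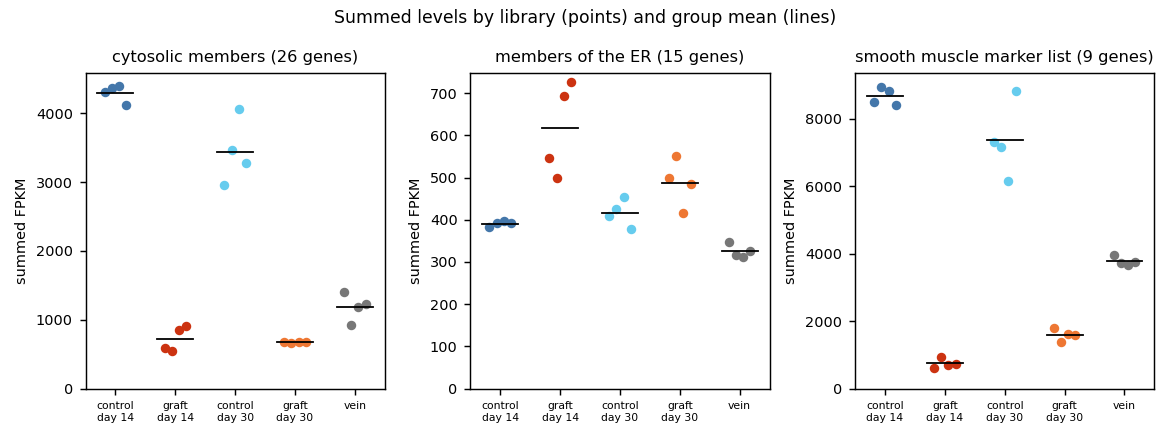
Summed FPKM in each library (points) and the group mean (lines) for the 26 cytosolic members, the 15 members of the endoplasmic reticulum (ER) and the 9 smooth muscle markers found. Cytosolic sums are 548 to 906 FPKM in graft day 14 against 4120 to 4392 in its controls. The ER sums of graft day 14, 500.1 to 726 FPKM, lie above those of its controls. Their mean is 390.8 FPKM in control day 14 and 616.5 in graft day 14, where PDIA6 alone has means of 154 and 336. Of 10 tested ER members 4 were called lower and 3 higher on that day, and the lower calls, that of PDILT among them, were lost with both changes of libraries.

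Genes listed without a symbol, whose descriptions name chaperones, were read apart from the rule. HSPB1, the small heat shock protein HSP27, fell from 1955 ± 74.6 to 511 ± 164 FPKM (a log2 change of -1.98, SE 0.18, adjusted p = 4.29e-08). HSPB2, which neighbours CRYAB in the RefSeq table, fell from 18.0 ± 2.75 to 1.82 ± 0.977 FPKM (a log2 change of -2.80, SE 0.21, adjusted p = 8.32e-09). A pair of entries described as stress-inducible HSP70 protein 1B were at 835 to 936 and 992 to 1228 FPKM in control day 14 and at 14.9 to 18.2 and 11.7 to 26.2 FPKM in graft day 14. As near-identical copies they can share reads, so the level of each is uncertain, and both were called lower (log2 changes -5.62 and -5.83, SE 0.75 and 0.69, adjusted p = 5.19e-06 and 1.49e-06). DNAJB6 also fell (log2 change -2.0, SE 0.35, adjusted p = 0.00011).

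Other unnamed entries did not follow at day 14. HSP90AB1, the constitutive cytosolic HSP90, was at 92.7 ± 18.1 and 105 ± 25.6 FPKM and was not called (log2 change 0.16, SE 0.31, adjusted p = 0.687). The mitochondrial chaperonin HSPD1 (log2 change -0.41, SE 0.24, adjusted p = 0.161) and both HSPE1 entries (log2 changes 0.00 and 0.04, SE 0.10 and 0.21, adjusted p = 0.978 and 0.902) were not called either. With median-of-ratios scaling, however, HSPD1 and the first HSPE1 entry were called lower (log2 changes -0.70 and -0.28, adjusted p = 0.0133 and 0.0206). BAG1 rose from 50.8 ± 1.45 to 95.1 ± 12.7 FPKM (a log2 change of 0.88, SE 0.11, adjusted p = 3.06e-06), against the direction of BAG2 and BAG3. Of the 15 such entries tested, 7 were lower and 3 higher, beside 17.0% and 36.5% of all genes. At day 30, 9 were lower and 3 higher, beside 11.6% and 26.0%. HSP90AB1 was then among the lower, at 95.2 FPKM in control and 54.0 in graft with overlap (limma, log2 change -0.91, SE 0.31, adjusted p = 0.0294). It was also lower in graft day 30 than in graft day 14 (log2 change -1.06, SE 0.31, adjusted p = 0.0294), a call lost in 10 alternatives.

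Heat shock factors and cytosolic co-chaperones outside the rule gave a mixed picture, with 5 of 12 tested genes lower and 4 higher at day 14 (median log2 change -0.06). The shares over all genes were 17.0% lower and 36.5% higher. HSF1, the transcription factor that induces heat shock genes, was at 40.3, 33.1, 29.8 and 28.8 FPKM in control day 14 and at 6.92, 2.94, 4.82 and 2.16 FPKM in graft day 14. The groups did not overlap (log2 change -2.78, SE 0.21, adjusted p = 8.76e-09). FKBP5, an HSP90 co-chaperone of steroid receptors, fell from 68.1 ± 2.27 to 10.3 ± 6.19 FPKM (a log2 change of -2.79, SE 0.37, adjusted p = 5.45e-06), and STIP1, which joins HSP70 to HSP90, fell by 0.74 (SE 0.11, adjusted p = 1.63e-05). TTC1 was higher (log2 change 0.61, SE 0.13, adjusted p = 0.000822), a call lost with TPM scaling and with control day 14 as 1 sample. The cytosolic chaperonin TRiC and prefoldin, which fold actin and tubulin, had 2 of 13 higher, 1 lower and a median log2 change of 0.04. Between 0 and 7 were lower in the alternatives other than leaving out 1 library in turn.

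PDIA6, a disulfide isomerase, was 1 of the 3 ER members that rose at day 14. Its levels were 149.8, 152, 159 and 157 FPKM in control day 14 and 280.3, 300.0, 375 and 391 FPKM in graft day 14. All graft libraries were above all controls (log2 change 1.10, SE 0.10, adjusted p = 7.74e-08), in every alternative too. HSPA5 (BiP), the HSP70 of the ER, was at 95.2, 100.0, 94.6 and 97.6 FPKM in control and at 131, 99.4, 149 and 160.0 FPKM in graft. Graft replicate 2 lay within the controls and the other 3 above (log2 change 0.45, SE 0.15, adjusted p = 0.0139). That call was lost in 6 of 31 alternatives (adjusted p up to 0.511), including both other scalings and leaving out graft day 14 replicate 4.

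CREB3L1 showed the largest rise of any member at day 14. It was at 4.05, 5.33, 4.67 and 5.92 FPKM in control day 14 and at 26.8, 34.7, 36.1 and 36.5 FPKM in graft day 14, a log2 change of 2.53 (SE 0.22, adjusted p = 4.2e-08) without overlap. Its paralog CREB3L2, outside the rule, was at 14.1, 18.3, 20.5 and 16.3 FPKM in control day 14 and listed at 0 in 3 of the 4 graft day 14 libraries, with 0.49 FPKM in the remaining one. A value of 0 can be a failed estimate, since genes of most cells are listed at or near 0 in this table, so no change is read from it. CREB3 fell by 0.45 (SE 0.07, adjusted p = 1.73e-05).

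Not all ER members rose. DNAJB9 (ERdj4), a J protein that helps BiP, fell from 23.4 ± 1.31 to 18.4 ± 1.51 FPKM (a log2 change of -0.33, SE 0.09, adjusted p = 0.0031), and DNAJC3 (p58IPK), another BiP partner, fell from 20.1 ± 0.922 to 14.8 ± 1.25 FPKM (a log2 change of -0.42, SE 0.10, adjusted p = 0.00146). Both calls were lost once control day 14 counted as 1 sample. CANX (calnexin), which holds glycoproteins until they fold, was at 55.9, 56.2, 60.4 and 55.7 FPKM in control and at 57.3, 17.6, 80.0 and 85.5 FPKM in graft. Graft replicate 2 was far below the others and the gene was not called (log2 change -0.14, SE 0.35, adjusted p = 0.756). PDIA4 was near 1 FPKM in both groups.

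Other folding factors of the ER, outside the rule, were mostly higher. Of 13 tested, 9 were higher and 1 lower at day 14, beside 36.5% higher and 17.0% lower among all genes. The median log2 change was 0.62, with between 6 and 9 higher in the alternatives other than leaving out 1 library in turn. SDF2L1, a BiP cofactor, was at 2.06 to 2.32 FPKM in control day 14 and at 12.5 to 21.7 FPKM in graft day 14 (log2 change 2.33, SE 0.17, adjusted p = 4.08e-09). TXNDC5 and ERP29, proteins of the disulfide isomerase family, rose by 1.57 (SE 0.14, adjusted p = 4.2e-08) and 1.56 (SE 0.15, adjusted p = 1.47e-07), and PPIB, a proline isomerase known for collagen folding, by 1.02 (SE 0.10, adjusted p = 1.67e-07). DNAJB11 (ERdj3), an unnamed entry, rose from 17.4 ± 1.15 to 31.0 ± 0.754 FPKM (a log2 change of 0.80, SE 0.07, adjusted p = 7.38e-08).

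The unfolded protein response, which senses misfolded proteins in the ER, gave fewer calls. Of 15 tested genes of this response and of ER-associated degradation 4 were called higher and 2 lower, CREB3 and CREB3L2 with its values of 0, with a median of 0.25 beside 0.26 over all genes. The shares over all genes were 36.5% higher and 17.0% lower, so these counts are not read as particular to the list. DERL3 and DERL1, parts of the export channel for misfolded proteins, rose by 1.21 (SE 0.18, adjusted p = 2.35e-05) and 0.80 (SE 0.12, adjusted p = 2.25e-05). Plasma cell markers, secretory cells' genes of which 5 of 6 were found, rose in 2 of 2 tested, with a summed level of 0.0600 to 1.83 FPKM in control day 14 and 31.2 to 70.2 FPKM in graft day 14, IRF4 being at 0 in 16 libraries and TNFRSF17 in 18. MZB1 had means of 2.66 and 9.88 FPKM in the grafts of days 14 and 30 and at most 0.772 elsewhere. It passed the filter mainly through groups in which it was high, so no rise is read from a call of it. Fibroblast markers, all 7 found and none at 0, summed to 1717 to 1899 FPKM in control and 3182 to 3917 FPKM in graft, with 2 of 7 higher and 2 lower. The sum follows COL1A2, with means of 575 FPKM in control day 14 and 2967 in graft day 14. PI16 went from 633 to 32.4 FPKM and DCN from 446 to 284, so the sum does not stand for the list. The part of plasma cells and fibroblasts in the ER results was not tested.

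**Figure D4:**
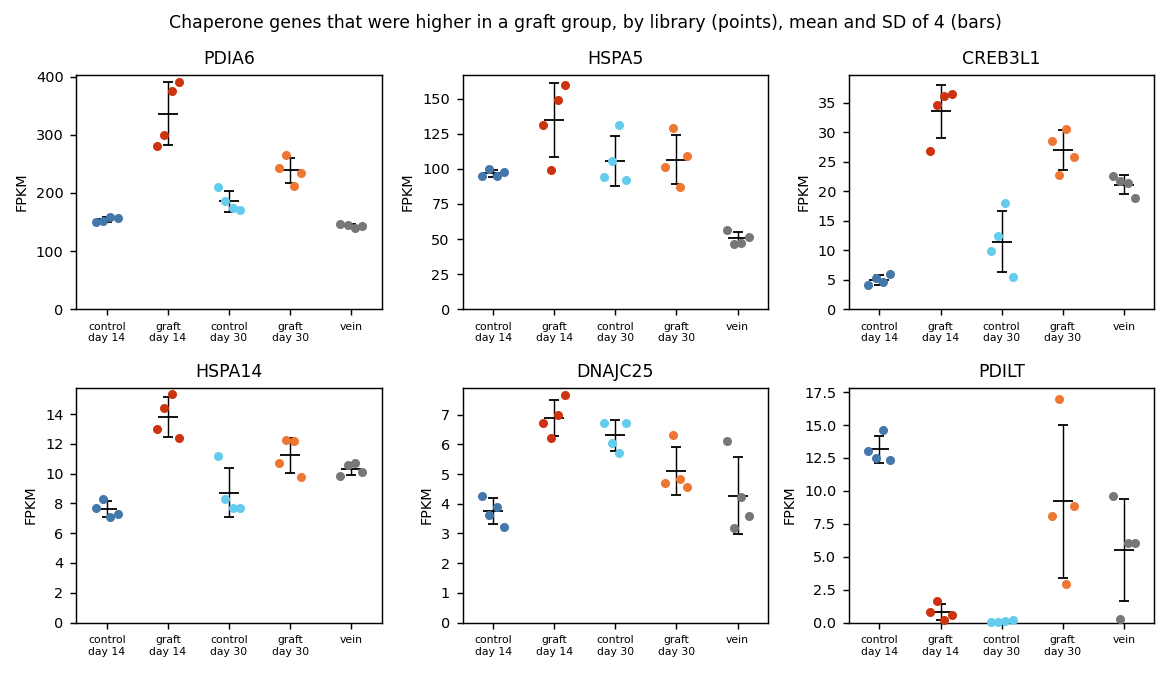
FPKM of 6 members that had a higher mean in at least 1 graft group than in its control, in each library (points), with the mean and SD of the 4 libraries of a group (bars). All graft points of PDIA6 and CREB3L1 lie above their controls on both days, those of DNAJC25 on day 14 alone, and PDILT is near 0 in graft day 14 and control day 30.

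PDILT, a disulfide isomerase relative known from testis, had a pattern of its own. It was at 13.0, 12.5, 14.6 and 12.4 FPKM in control day 14 but at 0.06, 0.05, 0.09 and 0.18 FPKM in control day 30. Grafts ran the opposite way, at 0.77, 1.61, 0.22 and 0.61 FPKM on day 14 and 8.11, 17.0, 2.90 and 8.87 FPKM on day 30. Vein had 9.61, 0.30, 6.02 and 6.06 FPKM, so that vein replicate 2 was low. Grafts were thus lower than controls at day 14 (log2 change -3.02, SE 0.50, adjusted p = 6.27e-05) and higher at day 30 (log2 change 3.03, SE 0.50, adjusted p = 0.000118), and the difference between the days, 6.05 (SE 0.71, adjusted p = 5.51e-05), was the largest of the list. With both changes of libraries the day 14 call and the difference were lost (adjusted p = 0.078 and 0.25). The controls of the 2 days were also apart (log2 change -3.69, SE 0.50, adjusted p = 0.00017). As values at or near 0 can be failed estimates, no effect of the graft is read from the calls of PDILT.

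Mitochondrial members had small changes. HSPA9 (mortalin), the mitochondrial HSP70, was at 73.9, 70.7, 73.6 and 70.02 FPKM in control day 14 and at 51.6, 41.7, 65.8 and 69.0 FPKM in graft day 14. All graft values were below all controls by a small margin (log2 change -0.36, SE 0.12, adjusted p = 0.0192), and the call was lost in 5 alternatives, among them without graft day 14 replicate 1 and without replicate 2. DNAJC15 and DNAJC11, J proteins of the mitochondrial inner membrane and cristae, rose by 0.53 (SE 0.17, adjusted p = 0.0158) and 0.35 (SE 0.09, adjusted p = 0.00375) at day 14 but were not called under either other scaling, and DNAJC15 not without graft day 14 replicate 4. Outside the rule 4 of 8 mitochondrial chaperones and proteases were higher at day 14 (median 0.24), namely HTRA2, CLPB, CLPP and TIMM44, with log2 changes of 1.13, 0.51, 0.90 and 0.31, against 36.5% higher among all genes. The call of TIMM44 was lost in 12 alternatives, 6 of them leaving out 1 library (replicate 1, 2 or 3 of control day 14 or replicate 2, 3 or 4 of graft day 14), and those of CLPB and CLPP with TPM scaling. Over the alternatives other than leaving out 1 library in turn, 1 to 4 were called higher.

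At day 30 fewer members were called higher in the graft than at day 14, 5 against 10. Fewer of all genes were called higher too, 26.0% against 36.5%. Such counts do not test a difference between the days, which is tested further below. Of the 48 members, 19 were lower (11.6% of all genes) and 5 higher (26.0%), with a median log2 change of -0.24 against 0.18 over all genes. In 17 members the graft libraries all lay below the controls (11.2% of all genes), and in 4 above (23.3%). Median-of-ratios scaling gave 24 lower and 3 higher, with the median of all genes moving by -0.150. Without the 4 mixture-like libraries 15 were lower and 6 higher, and 14 and 3 when both changes were made. Cytosolic members again led, with 14 of 20 lower and 2 higher (median -1.23), against 3 lower and 3 higher of 10 in the ER. HSPB3 is 1 of these 2 cytosolic rises and PDILT 1 of the 3 ER rises, and no effect of the graft is read from either call. Of the 21 members lower at day 14, 18 (85.7%) were lower at day 30 too, which is 94.7% of the 19 of that day. Of the 10 higher at day 14, 3 (30.0%) were also higher at day 30: CREB3L1, PDIA6 and HSPA14. The overlap was not counted over all genes, so these shares are not read as particular to the members.

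CRYAB at day 30 was at 1296, 1475, 1840 and 1346 FPKM in control and at 85.8, 48.2, 93.0 and 71.3 FPKM in graft. No library of one group came near the other (log2 change -4.33, SE 0.24, adjusted p = 3.88e-10). HSPB6 had 300, 413, 455 and 363 FPKM in control and 50.3, 29.8, 41.5 and 39.3 FPKM in graft (log2 change -3.22, SE 0.30, adjusted p = 1.75e-07). BAG2 went from 157 ± 26.5 to 16.6 ± 3.44 FPKM (a log2 change of -3.17, SE 0.18, adjusted p = 9.35e-10) and BAG3 from 190.0 ± 39.1 to 42.7 ± 11.6 FPKM (a log2 change of -2.15, SE 0.19, adjusted p = 1.05e-07). No graft library of the 4 genes reached a control library.

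HSPA8 at day 30 was at 683, 779, 916 and 769 FPKM in control and at 250.3, 313, 244 and 273 FPKM in graft (log2 change -1.54, SE 0.34, adjusted p = 0.00175). HSPH1 fell by 1.73 (SE 0.18, adjusted p = 6.44e-07), HSPB8 by 1.70 (SE 0.16, adjusted p = 1.62e-07) and DNAJB5 by 2.52 (SE 0.24, adjusted p = 2.21e-07). Summed smooth muscle markers were 6160 to 8827 FPKM in control day 30 and 1368 to 1802 FPKM in graft day 30, with 7 of 7 tested lower, and summed cytosolic members were 2953 to 4058 and 662 to 681 FPKM. Of these 7 markers, MYOCD had a mean of 6.13 FPKM in control day 30 and at most 0.400 in any other group. It passed the filter mainly through the group in which it was high, so no fall is read from its call. Summed macrophage markers were 19.3 to 39.3 and 222 to 394 FPKM, with 6 of 7 higher. The limit given for CD68 and MSR1 at day 14 applies here too. HSPB7 was listed at 3.57, 4.24, 2.65 and 0.13 FPKM in control day 30 and at 0, 0, 0.13 and 0.34 in graft day 30 and was not called (adjusted p = 0.0592).

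The 5 members called higher at day 30 were PDILT, whose control values were near 0, CREB3L1, PDIA6, HSPA14 and HSPB3. CREB3L1 went from 9.88, 12.5, 18.0 and 5.53 FPKM to 28.6, 22.8, 30.6 and 25.9 FPKM (a log2 change of 1.26, SE 0.22, adjusted p = 0.000213). PDIA6 rose from 186 ± 17.7 to 239 ± 21.4 FPKM (a log2 change of 0.36, SE 0.10, adjusted p = 0.00934), a call lost under both other scalings and with both changes. HSPA14 (log2 change 0.34, SE 0.11, adjusted p = 0.021) lost its call in 9 alternatives, among them without control day 30 replicate 2, 3 or 4 or graft day 30 replicate 2 or 3. HSPB3, a small heat shock protein of muscle, had 0.73, 1.01, 1.41 and 0.76 FPKM in the graft libraries, while the 4 controls list it at 0. It reached 1 FPKM in 4 libraries, all of them graft or vein, so it was tested only because of groups in which it was high, and no rise is read from its call. HSPA5 was not called, at 105 ± 18.0 and 106 ± 17.4 FPKM (log2 change 0.01, SE 0.15, adjusted p = 0.954).

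Other lists at day 30 were counted in the same way, beside 26.0% higher and 11.6% lower among all genes. ER folding factors were higher in 5 of 13 and lower in 1 (median 0.22), led by SDF2L1, which rose by 1.51 (SE 0.17, adjusted p = 1.68e-06). HSF1 fell from 23.3 ± 2.14 to 9.46 ± 1.93 FPKM (a log2 change of -1.23, SE 0.21, adjusted p = 0.000193), among 4 of 12 cytosolic co-chaperones and heat shock factors lower. The 1 gene of that list that was higher, ST13, was listed at 0, 0, 0.55 and 1.80 FPKM in control day 30 and at 139.9, 99.7, 0 and 75.5 FPKM in graft day 30. In control day 14 it was at 147 to 159 FPKM, and as a 0 can be a failed estimate, no rise is read from this call. TRiC and prefoldin had 5 of 13 lower. Of the unfolded protein response list 3 were higher and 2 lower of 15, and DDIT3, a factor induced by ER stress, was among the lower, at 86.0 ± 14.6 FPKM in control day 30 and 37.8 ± 4.10 FPKM in graft day 30 (log2 change -1.16, SE 0.13, adjusted p = 2.21e-06). Mitochondrial chaperones and proteases were higher in 2 of 8, beside 26.0% of all genes, and 1 of the 2, HTRA2, was not called under either other scaling, without the mixture-like libraries, or without replicate 4 of control day 30 or replicate 1 of graft day 30.

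**Figure D5:**
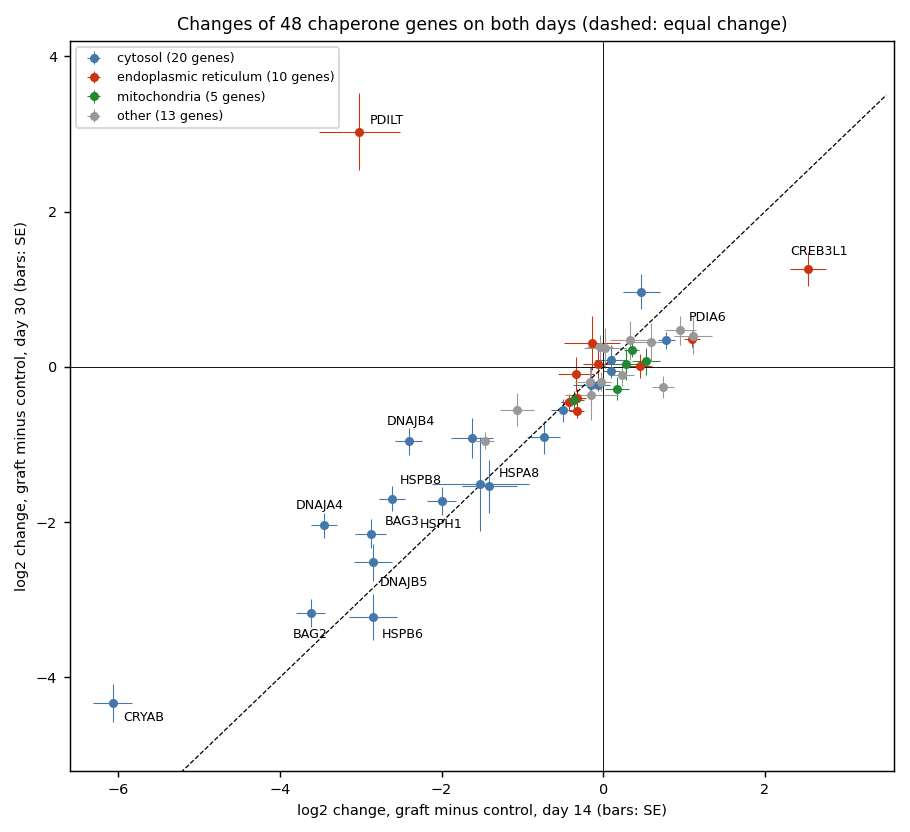
Log2 change of each tested member between graft and control on day 14 (x axis) and day 30 (y axis), with limma's standard errors as bars and colours by compartment. CRYAB lies at the lower left at -6.07 and -4.33, followed by BAG2 at -3.62 and -3.17, and PDILT lies alone in the upper left at -3.02 and 3.03.

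Whether the graft changed the members differently on the 2 days was tested as the difference of the effects, day 30 minus day 14. It was positive in 6 members (5.38% of all genes) and negative in 3 (7.57%). Besides PDILT the positive ones were DNAJB4 (1.46, SE 0.24, adjusted p = 0.000841), CRYAB (1.74, SE 0.33, adjusted p = 0.00247), DNAJA4 (1.41, SE 0.23, adjusted p = 0.000858), HSPB8 (0.91, SE 0.22, adjusted p = 0.0117) and DNAJC21 (0.50, SE 0.15, adjusted p = 0.0367). These 5 were lower in the graft on both days. Each difference is the change between the graft groups minus the change between the control groups. For HSPB8 these were 0.00 (SE 0.16) and -0.91 (SE 0.16), and for DNAJC21 0.17 (SE 0.11) and -0.34 (SE 0.11). For CRYAB they were 1.23 (SE 0.24) and -0.51 (SE 0.24), and for DNAJB4 1.07 (SE 0.17) and -0.38 (SE 0.17), so that the graft side was the larger. The negative ones were CREB3L1 (-1.27, SE 0.31, adjusted p = 0.0132), DNAJC25 (-1.0, SE 0.20, adjusted p = 0.00367) and PDIA6 (-0.74, SE 0.14, adjusted p = 0.00288). For CREB3L1 the change between grafts was -0.30 (SE 0.22) and that between controls 0.96 (SE 0.22), and for DNAJC25 -0.38 (SE 0.14) and 0.62 (SE 0.14). With control day 14 as 1 sample only PDILT kept its call (limma, 6 positive and 3 negative at unadjusted p under 0.05). DNAJC21 lost its call in 18 alternatives, 12 of them leaving out 1 library: any of control day 14, replicate 2 or 3 of graft day 14, replicate 1, 2 or 4 of control day 30, or replicate 2, 3 or 4 of graft day 30. CREB3L1, HSPB8 and PDIA6 lost theirs without the 4 mixture-like libraries.

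Between the graft groups themselves 5 members were higher on day 30 than on day 14 (8.01% of all genes) and 3 lower (8.31%). DNAJB4 went from 18.6 ± 4.47 to 39.5 ± 2.71 FPKM (a log2 change of 1.07, SE 0.17, adjusted p = 0.000471), CRYAB from 31.4 ± 9.22 to 74.6 ± 19.8 FPKM (a log2 change of 1.23, SE 0.24, adjusted p = 0.00195) and DNAJA4 from 3.66 ± 1.43 to 7.04 ± 0.502 FPKM (a log2 change of 0.83, SE 0.16, adjusted p = 0.00243). DNAJB5 was the remaining one beside PDILT (log2 change 0.85, SE 0.24, adjusted p = 0.0211), lost without graft day 14 replicate 1 or 4 or graft day 30 replicate 3 or 4. PDIA6 fell by 0.48 (SE 0.10, adjusted p = 0.00403), and the small falls of DNAJC7 and DNAJC11 (adjusted p = 0.0447 and 0.0471) were lost in 25 and 27 alternatives. Of the smooth muscle markers 5 of 7 were higher on day 30. HSPB6 (log2 change -0.67, SE 0.30, adjusted p = 0.134), BAG2 (0.13, SE 0.18, adjusted p = 0.679) and HSPH1 (-0.50, SE 0.18, adjusted p = 0.0636) were not called.

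The unoperated arteries of the 2 days differed as well. Between them 4 members were higher on day 30 (6.28% of all genes) and 5 lower (4.45%). HSPB8 was lower on day 30, at 32.4 ± 3.20 against 61.5 ± 1.48 FPKM (log2 change -0.91, SE 0.16, adjusted p = 0.00109) and HSPH1 from 88.8 ± 3.15 to 52.1 ± 5.82 FPKM (a log2 change of -0.77, SE 0.18, adjusted p = 0.00954). DNAJA4 and HSPA4L were also lower (log2 changes -0.58 and -0.93, SE 0.16 and 0.26, adjusted p = 0.0309 and 0.0298). These calls were lost without any 1 library of control day 14 and without replicate 1 of control day 30, for DNAJA4 also without replicate 2 and for HSPA4L without replicate 3 of that group. CREB3L1 rose from 4.99 ± 0.810 to 11.5 ± 5.21 FPKM (a log2 change of 0.96, SE 0.22, adjusted p = 0.00915) and DNAJC25 from 3.75 ± 0.441 to 6.30 ± 0.509 FPKM (a log2 change of 0.62, SE 0.14, adjusted p = 0.00889). HSPB11 and HSPA12B were the other rises (adjusted p = 0.0499 and 0.0273), lost in 20 and 7 alternatives. HSPB11 lost its call without any of 14 libraries left out in turn, and HSPA12B without replicate 2, 3 or 4 of control day 14 or replicate 1 of control day 30. CREB3L1 was not called in a fit of the controls alone or when the mixture-like libraries were left out. When control day 14 counted as 1 sample no member was called (limma, 2 higher and 3 lower at unadjusted p under 0.05).

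Vein was compared with unoperated artery. Against the mean of both control groups, 18 members were lower in vein (12.0% of all genes) and 5 higher (25.2%), with a median log2 change of -0.09 against 0.14. In 15 members all vein libraries lay below all 8 controls (7.96% of all genes), and in 1, CREB3L1, above (16.2%). Median-of-ratios scaling gave 22 lower and 3 higher (median of all genes moving by -0.128), and with both changes of libraries 9 were lower and 2 higher. Cytosolic members were lower in 12 of 20 and higher in 1. This comparison shares its controls with those of the grafts.

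BAG3 was among the lowest in vein, at 36.0, 19.8, 27.8 and 29.1 FPKM (log2 change -2.89, SE 0.16, adjusted p = 2.94e-10), where graft day 14 had 31.4 ± 2.59 FPKM. CRYAB was at 314, 163, 271 and 285 FPKM, between the grafts and the arteries (log2 change -2.81, SE 0.20, adjusted p = 7.97e-09). HSPB6 had a smaller change, at 224, 253, 220 and 227 FPKM (log2 change -0.86, SE 0.26, adjusted p = 0.0136), with the call lost when control day 14 was 1 sample and without the 4 mixture-like libraries. DNAJB4 was not called at all, at 104, 55.7, 84.5 and 83.1 FPKM (log2 change -0.15, SE 0.15, adjusted p = 0.464), although it was lower in both graft groups. HSPB2, the neighbour of CRYAB, was higher in vein (log2 change 0.64, SE 0.19, adjusted p = 0.0111), a call lost in 4 alternatives. Smooth muscle markers summed to 3658 to 3959 FPKM in vein, with 5 of 7 lower, the 7 including MYOCD with its limit given above, and their part in these levels was not tested.

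HSPA4 and HSPA5 had every vein library below all others. HSPA4 was at 21.6, 12.5, 18.2 and 20.6 FPKM, against 57.1 ± 8.67 FPKM in control day 30 and 29.7 ± 2.72 FPKM in graft day 30 (log2 change -1.73 against controls, SE 0.18, adjusted p = 7.85e-07). HSPA5 was at 56.8, 46.6, 47.0 and 51.1 FPKM, below all 16 artery and graft libraries (log2 change -0.99, SE 0.13, adjusted p = 7.44e-06). Other vein falls were DNAJB5 (-2.26, SE 0.21, adjusted p = 1.37e-07), HSPA8 (-1.48, SE 0.30, adjusted p = 0.000747), HSPH1 (-1.45, SE 0.15, adjusted p = 8.4e-07), DNAJA4 (-1.32, SE 0.14, adjusted p = 9.89e-07) and HSPB8 (-1.29, SE 0.13, adjusted p = 6.76e-07). CREB3L1 was at 22.6, 21.7, 21.4 and 18.9 FPKM (log2 change 1.41, SE 0.19, adjusted p = 1.6e-05), and HSPB11, HSPA14, HSPA12B and DNAJC19 were the other members called higher (log2 changes 0.89, 0.32, 0.77 and 0.36). The call of HSPA14 was lost under both other scalings, and that of DNAJC19 in 15 alternatives, among them without replicate 1, 2 or 4 of control day 14, replicate 2, 3 or 4 of control day 30, or replicate 1, 2 or 4 of vein.

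Of the 16 members that were not tested, 13 stayed under 1 FPKM in every library, 3 of these (HSPA12A, HSPB9 and DNAJC5G) listed at 0 in all, and BAG4, DNAJB12 and DNAJC1 reached at most 1.28, 1.18 and 1.87 FPKM. HSP90B1, the HSP90 of the ER, was at 0 to 0.47 FPKM, and PDIA3, a disulfide isomerase, at 0 to 0.25 FPKM. No gene named HSPA1A, HSP90AA1, CALR or DNAJB1 was found, and the entry described as calreticulin-like stayed at or below 0.13 FPKM. A value of 0 can be a failed estimate, so nothing is read from these levels.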

How the data were processed

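RNA of 20 rabbit vessel libraries was measured, 4 in each of 5 groups taken from the labels. The authors deposited 1 table of FPKM per transcript with 24964 rows and no read counts. Per the submitters' processing notes fastp, HISAT2, StringTie, RSEM and DESeq2 were used. Their versions, the genome build and the use of strand are not given in the sources used here, so overlapping and antisense genes cannot be told apart, and depth and counting error are unknown.

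FPKM was summed per gene. A gene was tested if 4 or more libraries reached 1 FPKM (8657 of 23669), on log2(FPKM + 1) with limma (group means over all 20 libraries, variances following the mean level, two-sided, Benjamini-Hochberg adjustment over all genes, threshold 0.05). Errors are limma's standard errors for log2 changes and SD with n = 4 for FPKM. An exact permutation test of 4 against 4 libraries could not go below p = 0.0286. The procedure was tested on simulated data, where false calls exceeded the nominal share once groups had unequal spread. Spread was unequal here too, with a median SD of log2 levels of 0.073 in control day 14 and 0.324 in graft day 14. An adjusted p under 0.05 is therefore not read as a bound of 0.05 on the share of false calls.

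Members follow the symbol rule, and the gene lists, named genes and alternatives were chosen with earlier results of these data known. The rule names the 8 largest rises and 8 largest falls per day and the 4 largest each way in other comparisons, among called members of at least 5 FPKM, plus a fixed set of classic chaperones and up to 4 genes per other list. DNAJA2, DNAJC3, DNAJC21, HSPB3, HSPA12B, HSPA12A, HSPB9, DNAJC5G, BAG4, BAG6, DNAJB12, DNAJC1, ST13, DDIT3, cases where a gene is named in a comparison that did not select it, and the 22 chaperone entries without a symbol (15 tested) were singled out after their values or descriptions were seen. Of the 64 member symbols, 63 are in the RefSeq table of gene names, which was used for names and neighbours only. The 31 alternatives were median-of-ratios and TPM scaling, a pseudocount of 0.1, no filter or one at 5 FPKM, fits of only the groups compared, group weights, a replicate block, leaving out each library or all 4 mixture-like ones, counting control day 14 as 1 sample, and both of the last. Fits ran in limma 3.58.1 under R 4.3.3, and tables and plots were made in Python 3.11.15 with pandas 2.3.3, matplotlib 3.10.9, scipy 1.17.1 and numpy 2.4.6.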

Additional observations from a re-analysis of the deposited data

Results flagged for a closer look

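Of 206 groups of 4 libraries looked at (members and unnamed chaperone entries), 8 had 1 library far from the other 3, and chance flags about 1 in 20 groups. These were CANX in control day 14 replicate 3 (60.4 FPKM), DNAJB9 in control day 30 replicate 4 (22.5 FPKM), DNAJC25 in graft day 30 replicate 2 (6.31 FPKM), the first HSP70-1B entry in graft day 14 replicate 2 (14.9 FPKM), HSP90AB1 in vein replicate 2 (125 FPKM), HSPA9 in control day 30 replicate 1 (59.7 FPKM), the first HSPE1 entry in control day 30 replicate 3 (22.7 FPKM) and HSPB8 in control day 30 replicate 1 (27.6 FPKM).

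The effect of the graft differed between the days by the test of the difference itself (day 30 minus day 14, log2) in 8 members that the rule names, in this or another comparison: PDILT (6.05), CRYAB (1.74), DNAJB4 (1.46), DNAJA4 (1.41), HSPB8 (0.91), PDIA6 (-0.74), DNAJC25 (-1.0) and CREB3L1 (-1.27). It also differed in the unnamed entries HSPB2 (1.39) and DNAJB11 (-0.52). The value of PDILT rests on groups near 0 and is not read as an effect of the graft. The difference is the change between grafts minus that between controls. Between controls HSPB8 changed by -0.91, CREB3L1 by 0.96, DNAJC25 by 0.62, DNAJA4 by -0.58 and PDILT by -3.69. Between grafts the same genes had values of 0.00, -0.30, -0.38, 0.83 and 2.36, the first 3 of them not called.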

How the results depend on the processing

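Of 191 gene and comparison values followed over 31 alternatives, 157 were called, 93 kept their direction and their side of the threshold in all alternatives, and 1 reversed: the first HSPE1 entry at day 14, with no call and 0.00, was called at -0.28 with median-of-ratios scaling. Calls were lost in 47 with control day 14 as 1 sample, 34 without the 4 mixture-like libraries, 81 with both changes, 18 with median-of-ratios scaling and 32 with TPM scaling. Numbers of members called moved as follows. For grafts against controls at day 14, higher calls were 6 with median-of-ratios scaling, 6 with TPM, 6 with control day 14 as 1 sample, then 4 with both changes, and lower calls 13 and 11 under the last 2. At day 30 higher calls were 3 with median-of-ratios, TPM and both changes. For the difference of the effects, positive calls were 1 with control day 14 as 1 sample, 0 after both changes (limma, 4 at unadjusted p under 0.05), and negative calls 0 (3 unadjusted), 1 without the mixture-like libraries and 0 (2 unadjusted) with both. For graft day 30 against graft day 14, higher calls were 2 with only the groups compared, 3 without the mixture-like libraries and 0 with both changes (4 unadjusted). Lower calls there were 1 without a filter, with median-of-ratios, with group weights and with control day 14 as 1 sample, and 0 with TPM (1 unadjusted), only the groups compared (4 unadjusted), without the mixture-like libraries (6 unadjusted) and with both changes (1 unadjusted). For control day 30 against control day 14, higher calls were 0 with control day 14 as 1 sample (2 unadjusted), 1 without the mixture-like libraries and 0 with both (0 unadjusted), and lower calls 3 with a pseudocount of 0.1, 2 with TPM, 0 with control day 14 as 1 sample (3 unadjusted) and 0 with both (3 unadjusted). For vein, higher calls were 3 with median-of-ratios, TPM and without the mixture-like libraries, 8 with only the groups compared, and 2 when control day 14 was 1 sample or after both changes, the latter with 9 lower calls.

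Leaving out each library in turn gave, higher and lower, 8 to 10 and 18 to 22 calls for day 14, 4 to 7 and 19 to 20 for day 30, 5 to 7 and 3 to 4 for the difference, 4 to 6 and 1 to 5 between grafts, 2 to 4 and 3 to 6 between controls, and 4 to 6 and 16 to 18 for vein. With the replicate number as a block the counts were 10 and 21, 6 and 19, 5 and 3, 5 and 2, 4 and 5, and 5 and 17 in the same order. The labels do not say that a number pairs samples, and deviations of same-numbered graft and control libraries correlated between -0.180 and 0.127, with 2 of 8 matching best with their own number. These values do not meet the bar set for a pairing, and whether graft and opposite artery of one number come from 1 animal is not known. The number of libraries limits the precision of all values, and low genes such as HSPB7, HSPB3 and PDIA4 lie where 2 decimals and unknown depth leave the error unmeasured.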
